A study of Mus musculus with 5 samples.

Results

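Major urinary proteins (MUPs) made up a different share of the messenger RNA of one hepatocyte than of the next, and the cells examined here are the hepatocytes of mice on the regular diet that stood at the 2 ends of that range. For each of the 216 cells of the 2 mice, the unique molecular identifiers (UMIs, which count captured RNA molecules) of all rows named Mup and a number were divided by the cell's total. The compared cells were chosen by this measured share: cells were ranked by it within their mouse and cut into 3 equal bins. The 72 cells of the highest bin are called high-Mup cells here, the 72 of the lowest bin low-Mup cells, and the others middle cells. The 144 compared cells, 44 in each bin of LFD mouse 1 and 28 in each bin of LFD mouse 2, came from a series of 454 hepatocytes from 5 mice. All mice were male C57BL/6J littermates, 8 weeks old when the diets began, and then ate for 12 weeks either regular chow, which the labels call LFD (2 mice), or a diet rich in fat, HFD (3 mice). Hepatocytes were sequenced by Drop-seq, in which beads in droplets tag the 3′ end of each polyadenylated transcript with a cell barcode and a UMI. The 2 LFD mice are the only replicates of the comparison, and cells of a mouse share their animal and their library.

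MUPs are small lipocalins, barrel-shaped carriers of lipophilic ligands. The mouse liver secretes them into the blood, from which they pass to the urine, where they bind and slowly release volatile pheromones. They are encoded by a cluster of closely related genes on chromosome 4, are expressed more strongly in males, and are driven by the pulsatile growth hormone of the male through the transcription factor STAT5. Mup20, also called darcin, acts as a male pheromone itself. Hepatocytes also differ by position: those near the portal vein (periportal) are specialised in gluconeogenesis, urea synthesis and much of plasma protein production, and those near the central vein (pericentral) in glutamine synthesis and in detoxification by cytochromes P450.

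The table held 21 Mup rows, of which 20 had UMIs in LFD cells and 16 had at least 15 UMIs in each LFD mouse. Their genes lie between 59956804 and 62150863 on chromosome 4 (mm10 coordinates, GENCODE annotation), with Mup3 (ENSMUSG00000066154, chr4:62083476-62087342), Mup20 (ENSMUSG00000078672, chr4:62050234-62054158) and Mup21 (ENSMUSG00000066153, chr4:62147932-62150863) at one end and Mup17 (ENSMUSG00000096688, chr4:61591929-61595871) inside the block of most similar copies. How reads that match several copies were assigned is not stated in the labels, so the value of any single member of that block is uncertain. To show how close the copies are, a stretch upstream of the transcription start that 12 of the 14 Mup promoters in the RefSeq promoter table (GRCm38.p6) share is printed for 5 members that behaved differently below, 5′ to 3′ on the gene's strand, which is the minus strand for all 5. Capitals mark ATCAATA, the core that Onecut factors such as HNF6 recognise. 
Mup3 (chr4:62087399-62087510): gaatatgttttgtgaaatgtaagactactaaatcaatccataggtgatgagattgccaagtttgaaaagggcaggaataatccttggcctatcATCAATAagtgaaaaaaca
Mup21 (chr4:62150917-62151028): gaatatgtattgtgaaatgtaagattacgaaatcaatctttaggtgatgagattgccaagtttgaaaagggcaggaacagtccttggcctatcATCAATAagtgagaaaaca
Mup7 (chr4:60070476-60070588): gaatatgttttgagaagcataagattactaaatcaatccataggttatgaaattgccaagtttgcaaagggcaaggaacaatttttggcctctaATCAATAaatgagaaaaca
Mup17 (chr4:61595962-61596074): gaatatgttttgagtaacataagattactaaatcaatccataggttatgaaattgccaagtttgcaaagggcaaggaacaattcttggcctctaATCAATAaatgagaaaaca
Mup18 (chr4:61674220-61674332): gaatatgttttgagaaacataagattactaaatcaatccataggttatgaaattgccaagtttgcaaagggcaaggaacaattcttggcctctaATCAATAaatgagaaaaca
Mup17 and Mup18 were identical at 112 of 113 bases of this stretch, and Mup2, Mup9 and Mup11 had the Mup18 sequence at 113 of 113. Mup17 and Mup7 were 97.3% identical, Mup3 and Mup21 92.9%, and Mup17 and Mup3 86.7%. The motif ATCAATA, searched on both strands of the 250 bases before each start, was present in 14 of 14 Mup promoters and in 1.86% of 32851 promoters. The STAT5 motif TTCNNNGAA was present in 0 of the 14 and in 7.02% of all promoters. Such matches describe the letters in this window only, and the copies are paralogs that share much of it. Mup20, Mup1 and Mup12 were not among the 14 promoters.

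Single hepatocytes of LFD mouse 1 carried a Mup share of 2.35 to 10.4% of their UMIs, with a median of 5.68%. In LFD mouse 2 the share ran from 2.14 to 10.6% around a median of 6.37%. The SD over cells was 1.72 and 2.03 percentage points in the 2 mice, against 0.45 and 0.473 that counting error alone gives at these depths, 3.82 and 4.29 times as large. At the lower boundary, the highest low-Mup and lowest middle cells stood at 4.95 and 4.98% in mouse 1. In mouse 2 they stood at 5.43 and 5.44%. At the upper boundary, the highest middle and lowest high-Mup cells stood at 6.61 and 6.63% in mouse 1 and at 7.57 and 7.76% in mouse 2. High-Mup and low-Mup cells are ranges of 1 ranked share, cut where neighbouring cells differed little. Whether cells fall into separate groups by this share was not tested. Cells of HFD mouse 2, the best sampled HFD mouse with 208 cells, reached further, from 0.901 to 20.4% around a median of 6.70%, and the 25 cells of HFD mouse 3 lay between 0.797 and 3.60%; HFD mouse 1, with 5 cells, was not ranked.

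**Figure D1:**
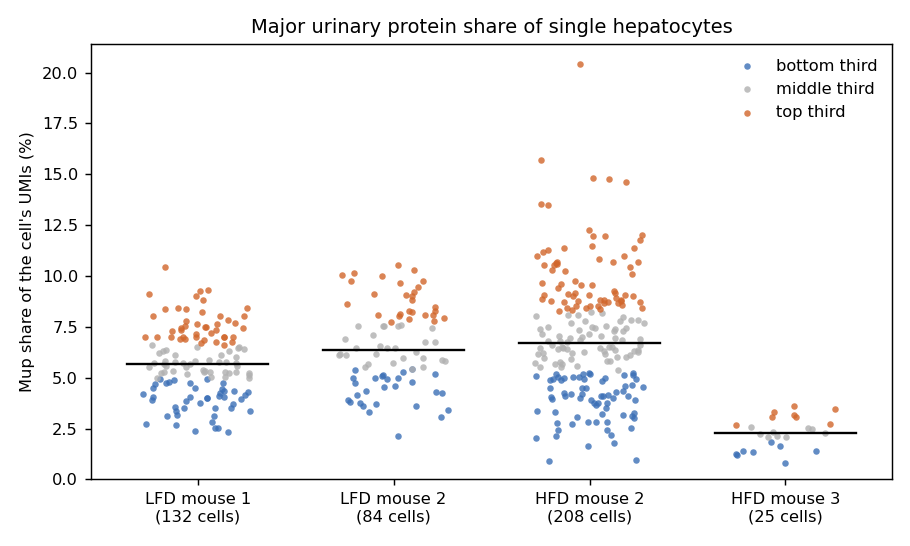
Mup share of each cell's UMIs (%) for 4 mice, each point 1 cell coloured by its bin within the mouse (blue low, grey middle, orange high) and the black line the median over the mouse's cells. Both LFD mice run from about 2.14 to 10.6%, HFD mouse 2 reaches 20.4%, and the 25 cells of HFD mouse 3 all lie under 4.95%.

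The cells carried the RNA of hepatocytes. The 25 hepatocyte markers gave 25.1 to 30.6% of the non-Mup UMIs of the bins compared, and all were detected. Among the marker lists of other cell types, neutrophil and adipocyte lists not included, 10 LFD cells had 3 or more UMIs of a single list. They numbered 1 or 2 in each bin of each mouse. Macrophage markers summed to 0 to 12 UMIs in each bin compared, sinusoidal endothelial markers to 1 to 4, cycling cell markers to 1 to 5, and neutrophil and adipocyte markers each to at most 1. Markers of 2 other types had more UMIs in high-Mup cells: cholangiocyte markers summed to 4 in low-Mup and 13 in high-Mup cells of mouse 1, 1 and 6 in mouse 2 and 2 and 9 in HFD mouse 2, and stellate cell markers to 1 and 4 in mouse 1 and 0 and 4 in mouse 2, but to 10 and 1 in HFD mouse 2. With the 10 cells left out, 222 genes passed in place of 230. Markers of T or NK cells and of B cells were at 0 UMIs in all 4 bins, which allows up to 36.8 CPM of non-Mup UMIs in the shallowest (3 counts). Krt19 and Epcam of cholangiocytes and Lrat of stellate cells were at 0 in all LFD cells. Erythroid UMIs numbered 6 to 15 per bin, and Alas2, the only member abundant enough to test, was at log2 fold change -0.74, SE 0.44, limma adjusted p = 0.311. No barcode was shared between libraries. The limit from 0 counts covers counting error only, and free RNA in the droplets was not measured.

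Depth and signs of RNA quality moved with the bins. The median UMI total was 2142 in low-Mup and 3222 in high-Mup cells of mouse 1, and 2756 and 3576 in mouse 2. In the cells of HFD mouse 2 the same medians were 2208 and 2190. Mitochondrial ribosomal RNA fell from 49104 to 30368 UMIs per 1000000 non-Mup UMIs (CPM, the scale of every level of a gene other than Mup here) in mouse 1 and from 47988 to 28421 in mouse 2, and both of its genes passed the test. RNA kept in the nucleus summed to 9172 CPM in low-Mup and 6353 CPM in high-Mup cells of mouse 1, and to 12892 and 8381 CPM in mouse 2. Of its 4 tested members, Malat1 (-0.54, SE 0.06 on the log2 scale) and Neat1 (-1.39, SE 0.28) fell. With every cell thinned to 1916 UMIs, the calls of Malat1 (-0.22, limma adjusted p = 0.192) and Neat1 (-1.09, limma adjusted p = 0.078) were lost. The small mitochondrial ribosomal RNA mt-Rnr1 was at -0.28 (limma adjusted p = 0.3), against -0.47 before, and was lost too. The large one, mt-Rnr2, still passed the test after thinning, at -0.59 (SE 0.05) against -0.73 before. Thinning also left out 54 shallower cells and lowered the counts, which weakens the test. The part of RNA quality in the results below was not tested; ranking cells within 3 bins of UMI total, which narrowed the depth gap to 2480 against 2982 UMIs in mouse 1 and 2774 against 3061 in mouse 2, gave 166 calls, which held 64 of the 88 genes called higher and 89 of the 142 called lower below.

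The Mup rows themselves chose the cells, so their values are a description with no test; they are given in CPM of all UMIs, Mup rows included. Mup3, the most abundant row with 53.9 and 45.9% of all Mup UMIs in the 2 mice, was at 21503, 31326 and 40652 CPM in low, middle and high cells of mouse 1 and at 19935, 30490 and 40297 in mouse 2. Mup20 spread further, from 7021 through 10124 to 19534 in mouse 1 and from 5649 through 12044 to 22410.3 in mouse 2. Its ratio of high to low was 2.78 and 3.97, against 1.89 and 2.02 for Mup3. Mup7 was also higher at the high end (1697 to 4251 and 1793 to 4018 CPM). In HFD mouse 2, Mup3 and Mup20 were higher in high-Mup cells too (22869 to 58676 and 6358 to 37969 CPM). Mup11 ran from 3378 to 4647 and from 5977 to 8486 CPM in the LFD mice but from 3661 to 1181 CPM in HFD mouse 2. Of the 20 rows with UMIs, 13 were higher in high-Mup than in low-Mup cells of both mice, 4 went opposite ways in the mice, and 3 were lower in both.

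The 3 that ran against the total were Mup17, Mup9 and Mup18. Mup17 was at 2889.99, 1813 and 1691 CPM in the low, middle and high cells of mouse 1, and at 5086, 3988 and 2366 in those of mouse 2. Low-Mup cells of each LFD mouse thus held the most of it. In HFD mouse 2, whose cells the LFD ranking did not use, Mup17 stood at 1753, 1884 and 427 CPM across the bins of that mouse. Over single cells, the Mup3 and Mup20 shares were positively correlated, with a Spearman rho of 0.64 over 132 cells and 0.74 over 84. Those of Mup3 and Mup17 ran opposite ways, at -0.37 and -0.50. These correlations describe cells that share a library and vary in depth.

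The Mup rows could be tested against lobule position, since the zone score of a cell, log2 of its pericentral list UMIs plus 1 over its periportal list UMIs plus 1, holds no Mup row. This test was added after the opposite course of Mup17 had been seen. Cells of each LFD mouse were cut into 3 equal bins by zone score, and 5.82% of 2131 genes outside the zone lists differed between the pericentral and the periportal bin (limma, adjusted p under 0.05), 3.52% higher and 2.3% lower in pericentral cells. Of 16 Mup rows tested, 4 were higher in pericentral and 5 in periportal cells. Mup17 was at 703, 1371 and 5118 CPM from the periportal to the pericentral bin of mouse 1 and at 869.8, 1419.8 and 10479.9 in mouse 2. Its log2 ratio of pericentral to periportal cells was 3.22 (SE 0.14), the largest of the 16, followed by Mup9 at 2.83 (SE 0.25) and Mup18 at 2.18 (SE 0.26). Mup11, whose printed stretch equals that of Mup18, was higher by 0.38 (SE 0.11, adjusted p = 0.0105).

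Mup20 had the opposite gradient. It fell from 17394 through 12095 to 6976 CPM in mouse 1 and from 19724 through 15157 to 6252 in mouse 2, a log2 ratio of -1.48 (SE 0.09). Mup1 (-1.04), Mup12 (-0.87), Mup3 (-0.66) and Mup21 (-0.55, adjusted p = 0.0382) were also lower in pericentral cells, and Mup7 at -0.31 did not pass (limma adjusted p = 0.143). In HFD mouse 2, which the fit did not use, Mup17 ran from 189 to 3048 CPM and Mup20 from 27536 to 7577 between the same ends. The median Mup share went from 6.38% of UMIs in periportal to 4.71% in pericentral cells of LFD mouse 1 and from 7.56 to 5.39% in those of LFD mouse 2. The pericentral bin held 24 of the 44 low-Mup cells and 8 of the 44 high-Mup cells of mouse 1, and 14 and 6 of 28 in mouse 2. Both kinds of cell occurred in every zone bin. Depth moved with zone as well, with a median of 3018 UMIs in periportal and 1924 in pericentral cells of mouse 1 and 3224 and 2756 in mouse 2, and its part was not tested.

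**Figure D2:**
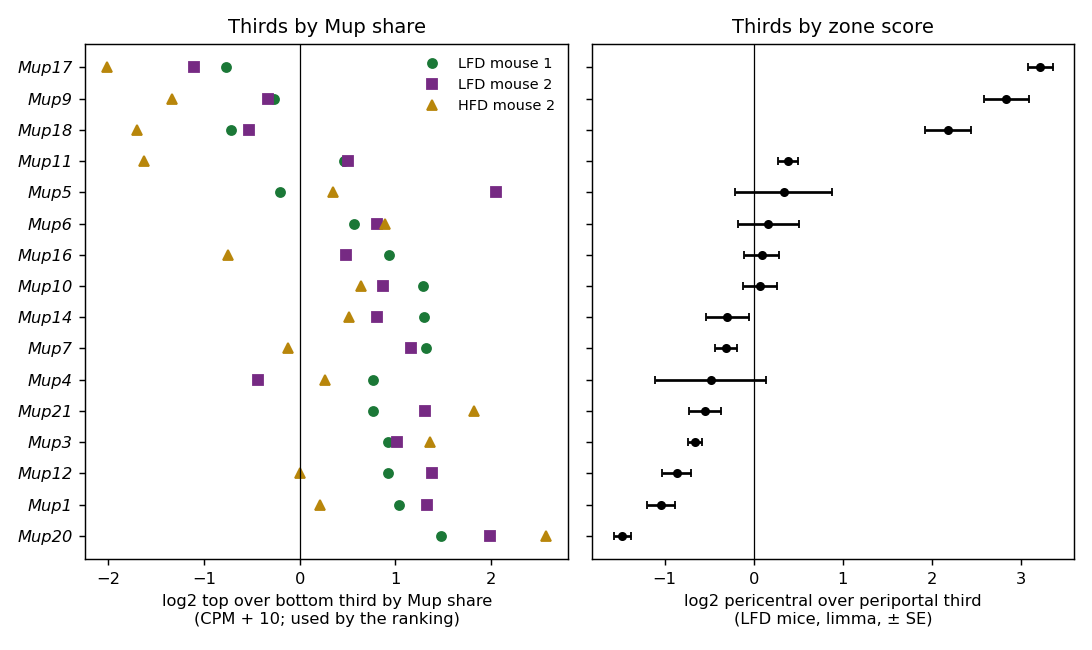
The 16 Mup rows with at least 15 UMIs in each LFD mouse: on the left, the log2 ratio of high-Mup to low-Mup cells (top and bottom bin, CPM of all UMIs plus 10) in LFD mouse 1, LFD mouse 2 and HFD mouse 2, which the ranking used; on the right, the log2 ratio of pericentral to periportal cells of the LFD mice with its SE (limma). Mup17, Mup9 and Mup18 lie below 0 on the left in all 3 mice and highest on the right, and Mup20 lies lowest on the right at -1.48.

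With Mup rows left out and the remaining genes taken relative to the non-Mup total, 2182 genes with at least 15 UMIs in each LFD mouse were compared between high-Mup and low-Mup cells by limma on the UMIs summed per mouse and bin, with the mouse as a block. At an adjusted p under 0.05, 10.5% of them passed, 88 higher (4.03%) and 142 lower (6.51%) in high-Mup cells. The bins of all genes tested differed by a median of -0.12 on the log2 scale, and scaling by trimmed means, which moved that median to -0.03, gave 111 higher and 97 lower. Both mice, from which the calls were made, gave the same direction for 88 of 88 genes called higher and 141 of 142 called lower, and for 63.7% of all genes tested; the exception was Fam25c, named after its values were seen, at -1.67 in mouse 1 and 0.35 in mouse 2 (values of 1 mouse are log2 ratios of CPM plus 10 throughout). Middle cells lay between the other 2 bins in both mice for 61 of the 88 and 102 of the 142, and for 21.0% of all genes tested. The calls were made from these same bins, and a gap wide enough to be called makes a value between its ends more likely. Standard errors and p-values rest on a spread pooled over genes, since each gene had only 2 residual degrees of freedom: without pooling, 0 genes passed and 279 had an unadjusted p under 0.05, 12.8% of those tested. Without the mouse as a block, 104 genes passed.

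Cells of HFD mouse 2, ranked by the same rule, give the same measure in an animal that the choice of cells did not use, on the other diet. There, 78 of the 87 genes called higher and detected with at least 15 UMIs were above 0 between high-Mup and low-Mup cells (89.7%), and 127 of the 141 called lower were below 0 (90.1%). Of all 2161 tested genes at that level, 44.5% were above and 55.5% below 0. In HFD mouse 3, with 8 cells in each bin, 48 of 69 and 46 of 65 had the LFD sign. The share over all tested genes was not computed for that mouse, so these counts have no reference.

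**Figure D3:**
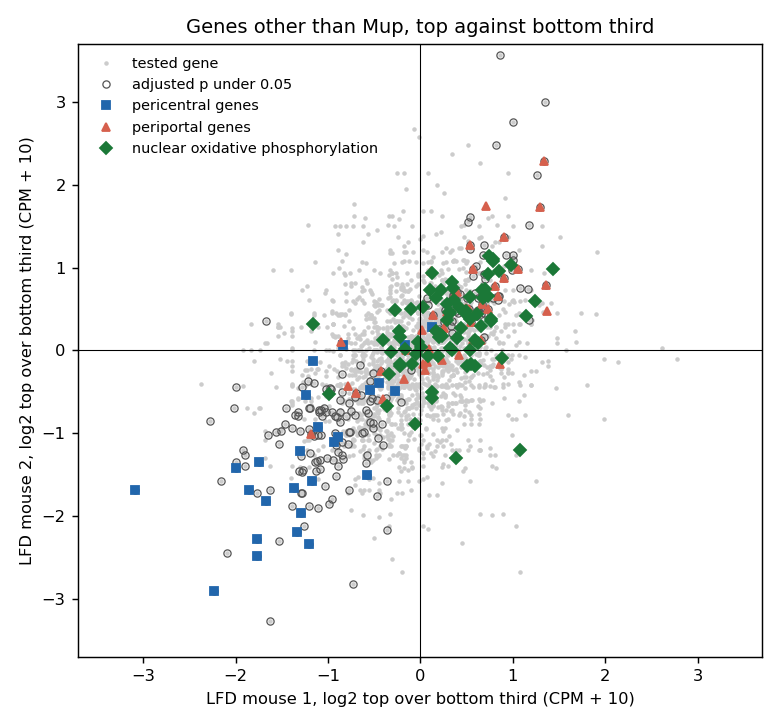
Log2 ratio of high-Mup to low-Mup cells (top and bottom bin, CPM plus 10) for each tested gene, LFD mouse 1 on the x axis and LFD mouse 2 on the y axis; open circles are genes past the threshold, and filled squares, triangles and diamonds are the tested pericentral, periportal and nuclear oxidative phosphorylation genes. Most pericentral genes lie at the lower left, and called genes have the same sign in both mice except Fam25c, at -1.67 and 0.35.

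Among the gene lists with more than 1 tested member, the pericentral genes had the lowest median in high-Mup against low-Mup cells. Of 26 tested, 21 fell and 1 rose, with a median log2 ratio of -1.36 against -0.12 over all genes tested. Cyp2e1, the ethanol- and acetaminophen-oxidising cytochrome, was at 2226, 1519 and 858 CPM across low, middle and high cells of mouse 1 and at 2671, 1309.7 and 835 CPM in mouse 2 (log2 -1.50, SE 0.14). The cytochromes Cyp2c29 (-1.59, SE 0.16), Cyp2c50 (-2.17, SE 0.27), Cyp1a2 (-1.73) and Cyp2a5 (-2.73) fell, as did Nr1i3 (-2.70), the xenobiotic receptor CAR. Others that fell were Slco1b2 (-1.35, SE 0.14), a sinusoidal organic anion importer, Rgn (-1.76, SE 0.20), the lactonase regucalcin, and Glul (-0.97), the glutamine synthetase of the last cells before the central vein. The member that rose was Mgst1 (0.19), a microsomal glutathione transferase. In HFD mouse 2 the median of this list was -2.44. In the 25 cells of HFD mouse 3 the values of 3 of its members differed from this: Cyp2e1 was at 0.12, Cyp2c29 at 0.67 and Slco1b2 at -0.07, on 9 to 36 UMIs per bin, and the zone score had a Spearman correlation of 0.047 with the Mup share, against -0.53 in HFD mouse 2.

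Drug and steroid metabolism, a list that shares many members with the pericentral genes, had 5 members that rose and 20 that fell of 62 tested (median -0.22). Besides the cytochromes, the transferases Gstm1 (-1.04, SE 0.13) and Gsta3 (-1.01, SE 0.14), the carboxylesterases Ces1c (-0.86) and Ces1e (-1.29), and the retinal dehydrogenase Aldh1a1 (-1.56, SE 0.19) fell. Aldh2 (-1.38, SE 0.18), the mitochondrial acetaldehyde dehydrogenase, which is outside the list, fell as well. Gstp1, the pi class transferase, rose, from 2585 to 4387 CPM in LFD mouse 1 and from 1054 to 2275 CPM in LFD mouse 2 (log2 0.86, SE 0.11).

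Periportal genes moved the other way: 20 of 41 tested rose and 3 fell, with a median of 0.42. Sds, the serine dehydratase that feeds gluconeogenesis, was at 317, 388 and 794 CPM in mouse 1 and at 294, 660.3 and 1002 CPM in mouse 2 (log2 1.51, SE 0.22). Cyp2f2, the periportal cytochrome, rose from 967 to 1812 CPM in LFD mouse 1 and from 846 to 2196 CPM in LFD mouse 2 (log2 1.11, SE 0.14). Genes of gluconeogenesis in this group that rose were Fbp1 (0.79, SE 0.13), G6pc (1.10, SE 0.30) and Pck1 (0.39). Of 17 genes of glucose and glycogen metabolism tested, 4 rose, these 3 among them, and 0 fell by limma. All 4 are also in the periportal list; of the 13 outside the zone lists 0 rose, and their median was -0.12. Within zone 1 of the 17 rose, and G6pc did not pass (0.43, limma adjusted p = 0.445). Urea cycle and amino acid genes were split, 6 up and 6 down of 46 tested. Arginase Arg1 (0.75, SE 0.14) and Otc (0.56) of the urea cycle and histidase Hal (0.83) rose, while Cps1 (-0.35) and Asl (-1.15), also of the urea cycle, fell. Csad (-1.61, SE 0.34), which makes the taurine precursor hypotaurine, also fell. 

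Zone moved with the Mup ranking, and a ranking within zone was therefore made. The median zone score was -1.29, -2.25 and -2.54 in low, middle and high cells of mouse 1 and -1.10, -2.59 and -2.80 in mouse 2, where lower is more periportal. Its Spearman correlation with the Mup share over cells was -0.38 and -0.41. When cells were ranked within 6 bins of zone score, an alternative chosen after seeing the data, 114 genes passed (5.22% of those tested), 49 higher (2.25%) and 65 lower (2.98%). They included 44 of the 88 genes called higher, 50% of these and 89.8% of the 49, and 59 of the 142 called lower, 41.5% of these and 90.8% of the 65. The sign was kept for 87 of the 88 and 141 of the 142. The pericentral median went from -1.36 to -0.54 with 7 members lower and 1 higher, and the periportal median from 0.42 to 0.23 with 11 higher and 5 lower. Cyp2e1 was at -0.34 and Alb at 0.05 in the matched ranking, against -1.50 and 0.37 without matching. Matching used the genes of the 2 zone lists, so their own matched values are held down by construction. Alb, a periportal list member and a secreted plasma protein, gave 35938 of the list's 92587 CPM in low-Mup cells of mouse 1. In mouse 2 it gave 36102 of 91602 CPM. Matching on the score thus also matched partly on Alb, and the part of Alb in the within-zone values was not tested. Over cells, the Mup share correlated with the share of other secreted plasma proteins at a Spearman rho of 0.54 and 0.51.

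Of 38 tested genes of secreted plasma proteins other than MUPs, 14 rose and 2 fell (median 0.23, and 0.05 within zone). Among those that rose were 5 alpha-1-antitrypsin paralogs. Serpina1e, the male-biased one, was at 4386, 6986 and 8761 CPM in low, middle and high cells of mouse 1 and at 4019, 8020.4 and 8592 CPM in mouse 2. Its log2 ratio was 1.04, SE 0.08, and 0.68 within zone. Serpina1b (0.89, SE 0.10), Serpina1d (0.70, SE 0.10), Serpina1a (0.62) and Serpina1c (0.47) rose with it; these copies are near-identical, and reads may be split among them. Kng1 (0.56, SE 0.10), the kininogen, rose too. Itih1 (-0.79) and the macroglobulin Mug1 (-0.42) fell.

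Of 10 tested carriers of lipophilic molecules besides MUPs, 6 rose and 0 fell by limma. Rbp4, the retinol carrier of plasma and itself a lipocalin, went from 6195 to 8338 CPM in LFD mouse 1 and from 6323 to 10182 CPM in LFD mouse 2 (log2 0.54, SE 0.07). Ttr, the thyroxine carrier that binds Rbp4, rose from 23931 to 33461 CPM in LFD mouse 1 and from 20232 to 28368 CPM in LFD mouse 2 (log2 0.49, SE 0.03). Apom (0.43) and Ambp (0.29), lipocalins as well, the vitamin D carrier Gc (0.22) and the cytosolic fatty acid binder Fabp1 (0.31, SE 0.03) also rose. Within zone the median of the 10 was 0.22, against 0.30 before. Among 17 apolipoprotein and lipoprotein assembly genes, 5 rose and 1 fell: Apoa2 (0.43, SE 0.03), Apoa1 (0.30, SE 0.05), Apoc3 (0.39, SE 0.07), Apoc2 (0.51) and Apom were higher and Apoc1 (-0.15) lower. Within zone 2 rose and 0 fell by limma, the median went from 0.15 to 0.003, and Apoa1 did not pass (0.17, limma adjusted p = 0.0965).

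**Figure D4:**
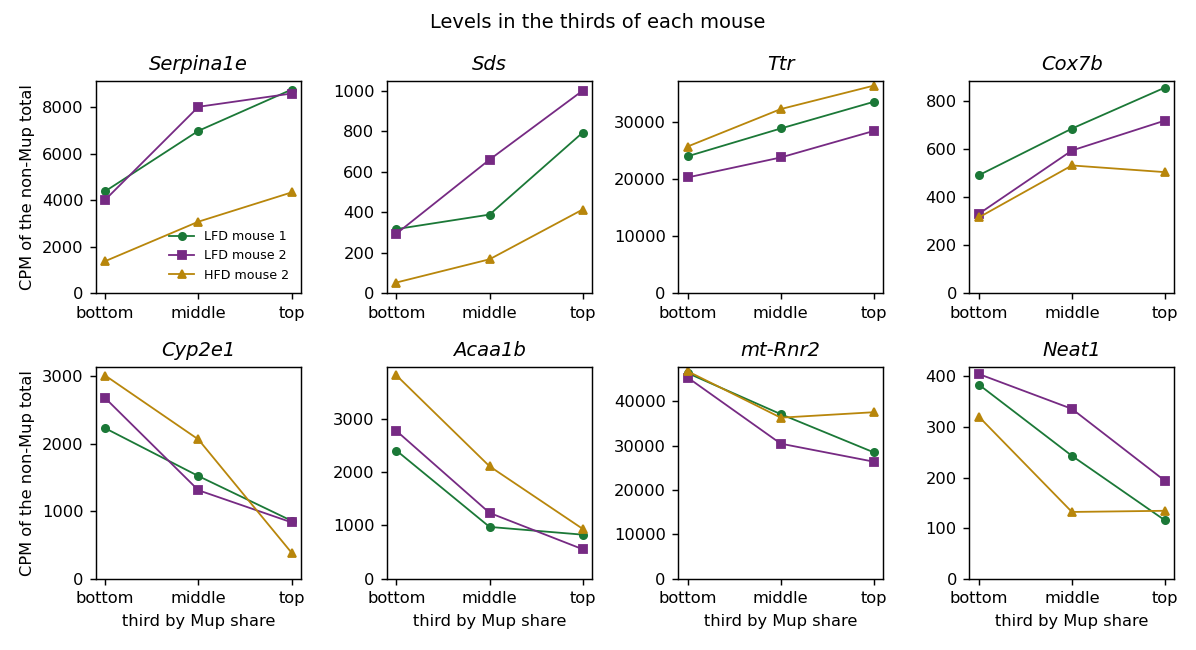
Levels of 8 genes (CPM of non-Mup UMIs, linear axes from 0) in the bottom, middle and top bins by Mup share, with 1 line for each of LFD mouse 1, LFD mouse 2 and HFD mouse 2. Serpina1e, Sds, Ttr and Cox7b end higher and Cyp2e1, Acaa1b, mt-Rnr2 and Neat1 lower in the top than in the bottom bin of all 3 mice.

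Of 40 complement and coagulation genes tested, 3 rose and 3 fell (median 0.02), against 4.03% higher and 6.51% lower over all genes tested. The fibrinogen chains Fgb (0.50, SE 0.07) and Fgg (0.52, SE 0.10) and Kng1 rose, while C3 (-0.64, SE 0.09), the central complement component, C4b (-1.03) and the lectin Mbl1 (-1.13) fell. C3 went from 5295 to 3272 CPM in LFD mouse 1 and from 2904 to 2029 CPM in LFD mouse 2. It is counted among the periportal genes, and it fell in high-Mup cells, which leaned periportal. Acute phase genes gave 3 higher and 1 lower of 18 tested. The one lower was Hamp (-0.89, SE 0.19), the iron hormone hepcidin, at -1.02 in mouse 1 and -0.46 in mouse 2. Hamp stood at 1284, 562 and 628 CPM in low, middle and high cells of mouse 1. In mouse 2 it stood at 343, 368 and 246 CPM, with 28 UMIs in low and 28 in high cells. In HFD mouse 2 Hamp was at -0.12. Of 11 interferon and antigen presentation genes, B2m (0.56, SE 0.10), the light chain of MHC class I, and Ifitm3 (0.77, SE 0.17) rose and 0 fell by limma.

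Of 73 tested nuclear genes of oxidative phosphorylation, 15 rose and 2 fell, with a median of 0.32 and of 0.28 within zone. Examples were Cox7b of complex IV (0.91, SE 0.20), Atp5c1 of ATP synthase (0.97, SE 0.25) and Ndufa4 (0.46, SE 0.12). Within zone, 7 of the list passed higher and 0 lower. Of 6 mitochondrial messenger RNAs tested, mt-Cytb (0.49, SE 0.07) and mt-Nd5 (0.63, SE 0.14) rose. The large mitochondrial ribosomal RNA mt-Rnr2 went the other way, from 46352 to 28478 CPM in LFD mouse 1 and from 45354 to 26382 CPM in LFD mouse 2 (log2 -0.73, SE 0.03). These messenger RNAs and the ribosomal RNA of the same genome thus moved in opposite directions.

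Of 26 tested targets of PPAR alpha, the receptor that drives fatty acid oxidation, 6 fell and 1 rose (median -0.41). Within zone 4 fell and 1 rose, and the median was -0.21, against -0.08 over all genes tested. Acaa1b, a peroxisomal thiolase, was at 2401, 971 and 826 CPM in mouse 1 and at 2769.5, 1234 and 553 CPM in mouse 2 (log2 -1.87, SE 0.14, and -1.19 within zone). Hadha (-1.03) of the mitochondrial trifunctional protein, the thiolases Acaa2 (-0.49) and Acaa1a (-0.77), and the fatty aldehyde dehydrogenase Aldh3a2 (-2.78) fell too. Fabp1 was the one that rose. Of 20 fatty acid and triglyceride synthesis genes (median -0.41), the desaturase Scd1 (-0.67, SE 0.12) and the acyl-CoA synthetase Acsl1 (-0.75, SE 0.19) fell, and Thrsp (0.91, SE 0.18), a lipogenic coactivator, rose.

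**Figure D5:**
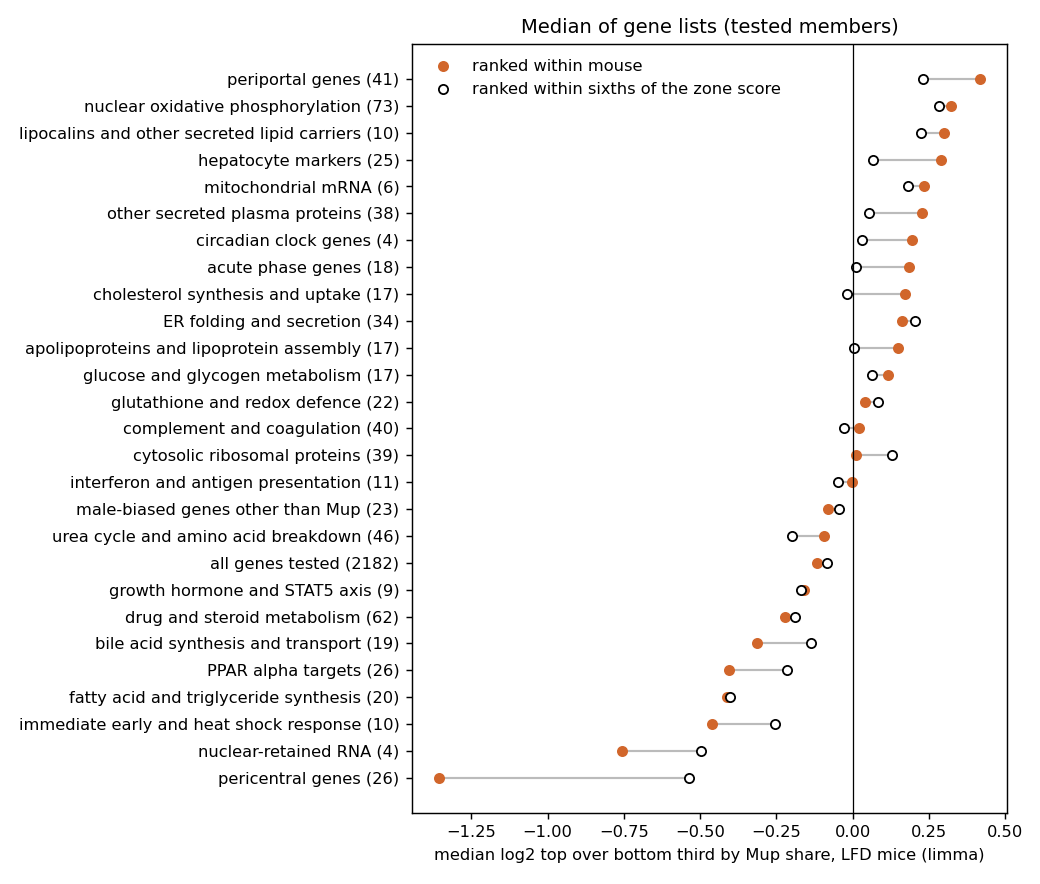
Median log2 ratio of high-Mup to low-Mup cells over the tested members of each gene list (number tested in brackets), ranked within mouse (filled) and within 6 bins of the zone score (open), with all 2182 genes tested as reference. The pericentral median moves from -1.36 to -0.54, and that of nuclear oxidative phosphorylation stays at 0.28 after 0.32.

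Other genes with male-biased liver expression were divided. Of 23 tested, 4 rose and 3 fell, with a median of -0.08 against -0.12 over all genes. Serpina1e, Gstp1, Cyp2f2 and the peroxisomal CoA diphosphatase Nudt7 (0.48) rose. Cyp2d9 (-0.52), Cyp7b1 (-0.65, SE 0.19), the oxysterol hydroxylase, and Ugt2b1 (-0.72) fell. Of 27 female-biased genes only Fmo1 was abundant enough to test, at log2 fold change 0.06, SE 0.59, limma adjusted p = 0.967. Summed, the list was lower in high-Mup than in low-Mup cells, which was not tested. It was at 325, 201 and 134 CPM (39, 29 and 21 UMIs) in low, middle and high cells of LFD mouse 1. In LFD mouse 2 it was at 172, 87 and 105 CPM (14, 8 and 12 UMIs), lowest in middle cells. In HFD mouse 2 it went from 829 to 252 CPM (189 and 47 UMIs). Of the growth hormone and STAT5 axis, 9 genes could be tested, of which 0 rose and 1 fell by limma: Onecut2 (-1.60, SE 0.37), a Onecut paralog, with 95 UMIs in all.

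The remaining groups gave 0 to 6 calls each, against 4.03% of all genes tested called higher and 6.51% called lower. The chaperones Hsp90ab1 (-0.58, SE 0.14) and Hsp90aa1 (-1.42, SE 0.38) fell among 10 immediate early and heat shock genes, with 0 higher by limma. Of 34 genes of folding and secretion in the endoplasmic reticulum, Manf (1.07, SE 0.33), a stress-induced chaperone, and Spcs2 (0.91, SE 0.28), a signal peptidase subunit, rose and Sel1l (-1.15, SE 0.40), part of the degradation machinery, fell; in HFD mouse 2 Manf was at -0.86. Glutathione and redox defence gave 2 higher and 3 lower of 22: Gpx1 (0.56, SE 0.08) and Prdx1 (0.49) rose, and Sod1 (-0.96, SE 0.15), catalase Cat (-0.60, SE 0.11) and Prdx6 (-0.55) fell. Of 39 cytosolic ribosomal protein genes tested, 5 fell, among them Rplp1 (-0.78, SE 0.20), Rps20 (-1.11, SE 0.29) and Rpl8 (-0.86, SE 0.23), and 1 rose. Of 17 cholesterol genes, 1 rose and 1 fell; the one that rose was Sc5d (0.78, SE 0.24), a desaturase of the synthesis pathway. Bile acid genes gave 0 higher and 2 lower of 19, Slco1b2 and Cyp7b1. The 4 testable clock genes, Bhlhe40 (0.25) and Rora (0.14) among them, gave 0 calls by limma and their most abundant members had unadjusted p = 0.62 and 0.727.

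Results depended on which Mup rows set the ranking. Ranked by Mup3 alone, 115 genes passed, which held 36 of the 88 and 70 of the 142; 86 and 141 kept their sign. Ranked by the Mup rows other than Mup3 and Mup20, 53 passed, 22 higher and 31 lower, which held 12 of the 88 and 15 of the 142; 70 and 106 kept their sign. In that ranking Cyp2e1 rose (0.91), as did Cyp2c29 (0.75) and Rgn (0.79), and Sds fell (-0.72, limma adjusted p = 0.0202). Serpina1e was at 0.34 and mt-Rnr2 at -0.34 in it, against 1.04 and -0.73 in the ranking by all Mup rows. The median zone score of its low and high cells was -2.49 and -1.49 in mouse 1 and -2.82 and -0.95 in mouse 2.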

How the data were processed

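The deposited table held, for 454 hepatocytes and 18018 genes, the natural log of 1 plus UMIs per 10000 of the cell, per the file's values. Reads were handled with STAR 2.6.0a and the mm10 build, per the submitters' processing notes; the annotation, strand setting and handling of multiply mapped reads are not stated in the labels. A second, smoothed table, which mixes cells, was not used. UMIs were recovered from the values by the step of 1 UMI per cell (100% whole within 0.001), which gave 446868 UMIs in LFD mouse 1 and 309050 in LFD mouse 2. They were summed per mouse and bin of Mup share (6 sums of 81603 to 156154 non-Mup UMIs). The sums were tested with limma 3.58.1 voom in R 4.3.3, with the mouse as a block and the non-Mup total as library size. Benjamini-Hochberg adjustment was over 2182 genes. The deposited unit is not counts, so the tests rest on the recovered UMIs, and no negative binomial model was run. The fit was tested on simulated data. No doublet caller was run. The labels do not say how cells were isolated.

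The members and gene lists were chosen with earlier results of these data known, and the test of Mup rows across zone bins was added after seeing the data. Genes are named by rule: the 12 of smallest p in each direction and up to 3 per list past the threshold, or the 2 most abundant where none passed; further list members were named after their values were seen, and some genes are not reported here. The 2 bins of a mouse come from the same animal, which is the pairing behind the block. P-values rest on the spread left after the differences between mice and between bins were fitted. That spread was pooled fully over genes (infinite prior degrees of freedom), so a gene's own spread had no weight. Promoter sequences are from RefSeq (GRCm38.p6), gene positions from GENCODE.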

Additional observations from a re-analysis of the deposited data

How the results depend on the processing

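Of the alternatives to the count of 230 genes with both LFD mice, 11 gave 162 to 255, within 1.5 times of it. The others were 143 with cells halved at the median, 63 of 10521 tested with no minimum, 115 ranked by Mup3 alone, 53 ranked by Mup rows other than Mup3 and Mup20, 102 with cells thinned to 1916 UMIs (54 shallower cells left out, 975 genes tested and 16 genes named by rule no longer past the threshold), 114 within 6 bins of zone score, 0 without pooling of variances (279 at an unadjusted p under 0.05) and 367 with HFD mouse 2 added. Without the replicate block for the mouse, 104 genes passed. The split was 70 higher and 185 lower with Mup rows kept in the library size, and 92 and 96 of 728 tested at a minimum of 50 UMIs per mouse. A single LFD mouse leaves no residual degrees of freedom and no count; no gene named as past the threshold had opposite signs in the 2 mice, except Fam25c. With HFD mouse 2 in place of 1 LFD mouse, an alternative chosen after seeing the data, 237 to 238 genes passed, and Manf changed sign without LFD mouse 2 (-0.23). Ranked by Mup rows other than Mup3 and Mup20, 14 genes named by rule and past the threshold changed sign: Cyp2e1 (0.91), Rgn (0.79), Cyp2c29 (0.75), Cyp2c50 (0.62), Slco1b2 (0.24), Gstm1 (0.23), Gsta3 (0.14), Hamp (0.061), Csad (0.044), Acsl1 (0.013), Kng1 (-0.074), Alb (-0.093), Fbp1 (-0.10) and Sds (-0.72). The cause was not tested. The middle cells and both mice share one pooled spread, and genes with few UMIs are limited by depth.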

Other observations

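Genes outside every list, named after their values were seen, also differed between high-Mup and low-Mup cells in both LFD mice. Hrsp12, which encodes a deaminase that clears reactive enamines, was higher by 0.95, SE 0.14 on the log2 scale (limma) and stood at 1.40 in HFD mouse 2. Slc25a5, a mitochondrial ADP/ATP carrier, was higher by 1.05, SE 0.24. Gjb1, the gap junction protein connexin 32 of hepatocytes, was higher by 0.59, SE 0.18, but lay at -0.04 in HFD mouse 2.

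Among those lower in high-Mup cells were 2 enzymes of haem synthesis, Cpox (-1.43, SE 0.37) and the ferrochelatase Fech (-1.27, SE 0.33), and the biliverdin reductase Blvrb (-1.23, SE 0.33). Within zone they stood at -0.78, -1.18 and -0.31, of which Fech passed (limma adjusted p = 0.0227). Stard10, a phospholipid transfer protein, was at -1.12, SE 0.18, with -0.89 in HFD mouse 2, and the translation elongation factor Eef2 at -1.02, SE 0.23, with -1.47. The unfolding ATPase Vcp (-1.17, SE 0.27) and cathepsin D, Ctsd (-1.32, SE 0.35), were lower too, as was Zbtb20 (-0.70, SE 0.20), a transcriptional repressor of the liver.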
